A study of Mus musculus with 6 samples.

Results

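The genes described here encode proteins that mark platelets and the megakaryocytes that release them. The set of 10 was taken by name, with earlier results of these data known. It holds the chemokines Pf4 and Ppbp and the von Willebrand factor receptor subunits Gp1ba, Gp1bb, Gp9 and Gp5. It also holds the integrin chain Itga2b, von Willebrand factor itself (Vwf), the thrombin receptor F2r and the kinase substrate Plek. The set makes up 10 of 23574 gene features, and 9 of its genes were among the 10204 features with enough counts to test. The RNA-seq libraries, 3 labelled HLF KO and 3 from wild-type littermates of the C57BL/6 strain, were each made from 3000 haematopoietic stem cells. The cells were sorted as Lin-, Sca+ and c-Kit+ without CD34 or Flt3. HLF KO stands for loss of the PAR bZIP transcription factor hepatic leukaemia factor. The age of the mice, the design of the deleted allele and whether each library came from its own animal are not given in the labels, so any p-value rests on variation among libraries that may be technical in part.

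Megakaryocytes grow large, fill granules with chemokines and adhesion proteins, and shed platelets. Platelets hold on to a damaged vessel through the GPIb-IX-V complex, which binds von Willebrand factor, and they aggregate through the integrin αIIbβ3. In mouse bone marrow a subset of stem cells expresses some of these genes, Vwf and Itga2b among them, and is known to produce platelets preferentially, a state called megakaryocyte priming or platelet bias.

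The libraries held 10182464 to 11998296 counts in HLF KO and 8346335 to 9902102 in wild type, so every HLF KO library was the deeper. Hlf averaged 34.4 ± 5.3 CPM (counts scaled to a common total by library size and a TMM composition factor) in HLF KO and 1382.1 ± 274 CPM in wild type (SD, n = 3 each), with a log2 fold change of -5.33 (SE 0.26, edgeR quasi-likelihood adjusted p = 1.91e-06), and the targeted gene thus went with the labels. Stem cell genes were detected, with Mecom the most abundant of 12 listed, but Ly6a (Sca-1) had 0 counts and Kit had 1. These genes have several listed transcripts, a class that drew few counts here (median of 3 over 6 libraries for genes with 2 transcripts, 79 for genes with 1), so their zeros are not read as absence. Wild-type libraries were less alike (Pearson's r across genes 0.749 to 0.805, where genes do not count as independent replicates) than HLF KO libraries (0.869 to 0.883). The summed level of 11 granulocyte and monocyte markers was 73.2 to 213 CPM in HLF KO, and 262, 135 and 2710.1 CPM in wild-type libraries 1, 2 and 3, so wild-type library 3 stood apart. Xist was abundant in library 3 of both genotypes alone, with 19229 counts in HLF KO and 16730 in wild type, and had at most 34 counts elsewhere.

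Pf4, Gp1ba, Gp9 and F2r had higher values in every HLF KO library than in any wild-type library, between 2.27-fold and 5.27-fold on average, while Vwf did not differ beyond its spread and the lower mean of Ppbp rested on 1 wild-type library. With adjustment over all 10204 genes, edgeR called 0 of 9 members (Hlf was the 1 gene called, 0.0098% of those tested). At an unadjusted p under 0.05 there were 4 members with higher values and 0 with lower ones, where 2.63% of all tested genes had higher and 4.65% lower values at that level (7.27% together). Log2 fold changes were above 0 for 8 of 9 members and for 47.2% of all tested genes, with a median of 0.70 for the members and -0.05 for all genes. The members were chosen with earlier results of these data known, so their shares here and below are a description and not independent support. DESeq2, a second test of the same counts, called 3 members higher (Pf4, F2r and Gp1ba) and 0 lower, against 0.212% and 0.878% of all genes it tested. DESeq2 called 108 genes in all where edgeR called 1. It made more false calls than edgeR in simulated counts, so its adjusted p-values are read with caution here. Those counts were drawn with dispersions that edgeR had fitted, so they cannot rank the tests on the real counts. In the simulated counts DESeq2 also recovered more of the true differences, and edgeR missed many of the smaller ones. That edgeR called 0 of 9 members is therefore not read as absence of a difference. The summed level of the members was 1326.8, 1616.1 and 1781.0 CPM in HLF KO and 1019.0, 764.2 and 675.1 CPM in wild type. In bulk libraries, more cells of a type and more RNA per cell cannot be told apart.

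**Figure D1:**
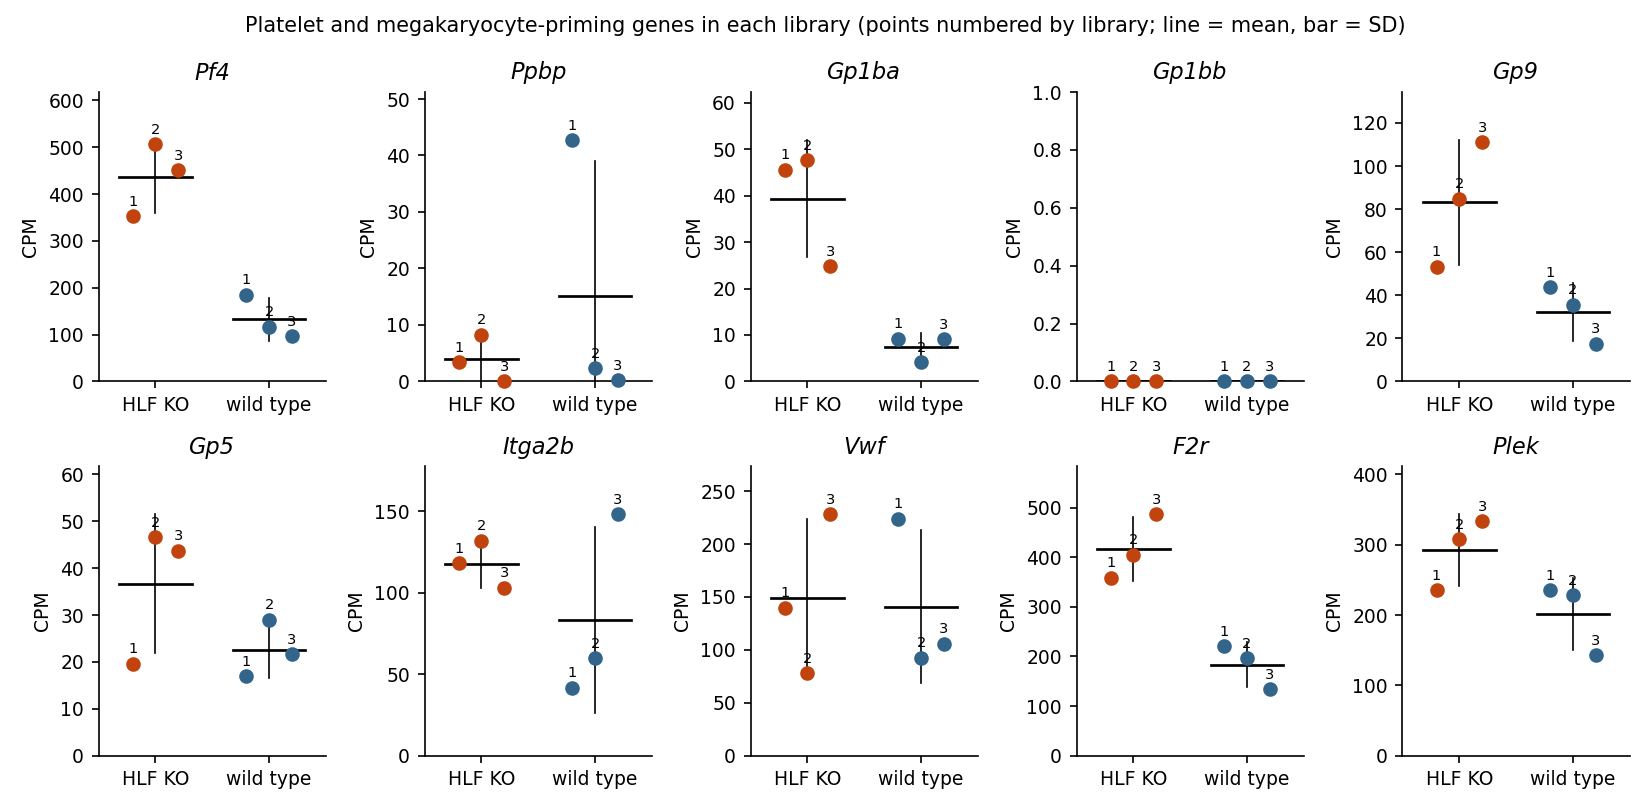
Level in CPM (vertical axes, linear, from 0) of the 10 platelet and megakaryocyte-priming genes in HLF KO (left) and wild type (right); points are libraries numbered 1 to 3, lines are means and bars are SDs, drawn no lower than 0. Pf4, Gp1ba, Gp9 and F2r do not overlap between genotypes, Plek touches at 235 CPM, and Vwf, Gp5, Itga2b and Ppbp overlap.

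Upstream sequence is shown for the 4 members with the smallest p-values and for Ppbp, the immediate neighbour of Pf4 on chromosome 5, because these neighbours had unlike values. The 250 bases before each RefSeq start are given 5′ to 3′ on the gene's strand (assembly GRCm38.p6, a later build than the mm9 of the counts): Pf4 at chr5:90772185-90772434 (plus strand), Gp1ba at chr11:70638872-70639121 (plus), Gp9 at chr6:87777820-87778069 (plus), F2r at chr13:95618467-95618716 (minus) and Ppbp at chr5:90768268-90768517 (plus). Capitals mark matches on either strand to a GATA motif (AGATAA or AGATAG, or else TGATAA or TGATAG) or an ETS motif (AGGAAG or else CGGAAG), the letters bound by the GATA and ETS families of megakaryocyte transcription factors. A match on the opposite strand reads as its reverse complement, such as CTTCCT, and the marked matches do not overlap each other.
Pf4: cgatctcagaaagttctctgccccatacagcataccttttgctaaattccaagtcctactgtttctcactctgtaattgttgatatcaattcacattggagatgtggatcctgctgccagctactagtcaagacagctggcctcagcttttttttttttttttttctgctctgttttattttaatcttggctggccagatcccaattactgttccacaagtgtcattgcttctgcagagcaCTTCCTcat
Gp1ba: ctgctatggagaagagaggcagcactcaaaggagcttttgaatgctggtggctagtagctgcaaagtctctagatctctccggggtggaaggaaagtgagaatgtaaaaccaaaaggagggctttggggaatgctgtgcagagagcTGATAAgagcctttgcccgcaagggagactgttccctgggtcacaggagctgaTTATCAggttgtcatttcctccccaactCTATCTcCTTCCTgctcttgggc
Gp9: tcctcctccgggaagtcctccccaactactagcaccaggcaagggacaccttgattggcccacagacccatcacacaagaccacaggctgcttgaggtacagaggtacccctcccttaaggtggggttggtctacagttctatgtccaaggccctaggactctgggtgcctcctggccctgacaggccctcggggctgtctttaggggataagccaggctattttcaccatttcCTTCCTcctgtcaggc
F2r: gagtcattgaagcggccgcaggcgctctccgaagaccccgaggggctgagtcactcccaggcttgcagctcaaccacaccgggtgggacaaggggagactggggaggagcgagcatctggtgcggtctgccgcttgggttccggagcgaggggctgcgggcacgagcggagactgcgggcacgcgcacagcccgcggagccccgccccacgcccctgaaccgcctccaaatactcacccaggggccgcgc
Ppbp: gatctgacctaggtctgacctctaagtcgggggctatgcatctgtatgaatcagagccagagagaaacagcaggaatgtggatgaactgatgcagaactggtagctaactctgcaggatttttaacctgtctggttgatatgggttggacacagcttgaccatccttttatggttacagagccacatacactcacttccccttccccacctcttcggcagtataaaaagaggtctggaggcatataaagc

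Among these 5 windows Gp1ba held 3 GATA matches and 1 ETS match, Pf4 and Gp9 held 1 ETS match each, and F2r and Ppbp held 0 of either. The ETS match lay 9 to 4 bases before the start in Pf4 and 16 to 11 bases before it in both Gp1ba and Gp9. A window was available for 9 members, with Gp1bb among them but not Vwf, which was not searched. Of these 9, 3 had a GATA match (Gp1ba, Gp1bb and Gp5), against 26.5% of 32851 windows of the same length. An ETS match was in 6 of them, against 39.2%. The letters of the PAR bZIP motif that HLF binds (TTATGTAA or TTACGTAA, both strands) were in 0 of the 9 windows and in 0.931% of all windows. A match in letters is a description and not a measured binding site, and a window without one says nothing of binding elsewhere.

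The platelet chemokines parted. Pf4 encodes platelet factor 4 (CXCL4), stored in alpha granules, and stood at 353, 507 and 451 CPM in HLF KO libraries and at 185, 117 and 96.4 CPM in wild-type libraries. The lowest HLF KO library lay well above the highest wild-type library. Pf4 averaged 437 ± 77.7 CPM in HLF KO and 133 ± 46.4 CPM in wild type (SD, n = 3 each), a log2 fold change of 1.72 (SE 0.29, 3.29-fold, 95% interval 2.13 to 5.09), with an edgeR adjusted p = 0.25 and a DESeq2 adjusted p = 7.49e-05. Without wild-type library 1, the wild-type library with most Pf4, edgeR called it (log2 fold change 2.05, adjusted p = 0.0142). With any other library left out edgeR did not call it, at adjusted p from 0.245 to 0.982. Ppbp, whose product is cut to the neutrophil attractant NAP-2 (CXCL7), had 37, 88 and 0 counts in HLF KO and 336, 23 and 2 in wild type. Wild-type library 1 held most of its 486 counts, and the other 5 libraries lay at 0 to 8.29 CPM. Its log2 fold change was -1.95 (SE 1.79, 95% interval -5.87 to 1.96, edgeR adjusted p = 0.832) and turned to 1.57 without wild-type library 1. The 0 counts in HLF KO library 3 allow a level of up to 0.26 CPM, by counting error alone.

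The von Willebrand factor receptor is built from GPIbα, which carries the binding site, GPIbβ, GPIX and GPV. Gp1ba (GPIbα) stood at 45.6, 47.6 and 24.8 CPM in HLF KO libraries, and at 9.16, 4.16 and 9.09 CPM in wild-type libraries. All HLF KO values lay above all wild-type values, although these were the lowest levels among the members without overlap. The log2 fold change was 2.40 (SE 0.67, 5.27-fold, 95% interval 1.91 to 14.5, edgeR adjusted p = 0.466; DESeq2 adjusted p = 0.0311). Gp9 (GPIX), which the complex needs to reach the cell surface, stood at 53.3, 84.9 and 111 CPM in HLF KO and at 43.6, 35.6 and 17.6 CPM in wild type. HLF KO library 1 was close to wild-type library 1, and the log2 fold change was 1.36 (SE 0.48, 2.57-fold, 95% interval 1.24 to 5.32, edgeR adjusted p = 0.563; DESeq2 adjusted p = 0.206). It was 1.11 without HLF KO library 3 and 0.81 without library 3 of both genotypes, and in these fits Gp9 no longer had an unadjusted p under 0.05. Gp5 (GPV), the thrombin-cleaved subunit, stood at 19.6, 46.6 and 43.7 CPM in HLF KO and at 17, 29 and 21.7 CPM in wild type. Its groups overlapped through HLF KO library 1, and its log2 fold change of 0.70 (SE 0.58, 95% interval -0.56 to 1.96) leaves both no change and more than the change of F2r within the interval. Gp1bb (GPIbβ) had 0 counts in all 6 libraries. It has 2 listed transcripts and its exons overlap those of Sept5 and Gm49601 on the same strand, so this zero is not read as absence and the gene was not tested.

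Von Willebrand factor and the integrin chain that marks megakaryocytes did not separate the genotypes. Vwf, made by megakaryocytes and endothelial cells and used as a marker of platelet-biased stem cells, stood at 140, 77.8 and 228 CPM in HLF KO and at 224, 92.5 and 106 CPM in wild type. Each genotype had 1 high library, HLF KO library 3 and wild-type library 1, at nearly the same level, with the others at or below 140 CPM. The log2 fold change was 0.08 (SE 0.44, 1.06-fold, 95% interval 0.545 to 2.05, edgeR adjusted p = 0.98), an interval that still holds a fold of up to 2.05. Its sign turned in 4 of the 7 fits that left out libraries, with values from -0.53 to 0.60. Itga2b, which encodes the αIIb chain (CD41) of the fibrinogen receptor, stood at 118, 132 and 103 CPM in HLF KO and at 41.7, 59.9 and 148 CPM in wild type. The HLF KO libraries lay close together, and wild-type library 3 was the highest of all 6. The log2 fold change was 0.50 (SE 0.45, 95% interval -0.47 to 1.48, edgeR adjusted p = 0.825), 1.22 without wild-type library 3 (edgeR adjusted p = 0.317) and 0.20 without wild-type library 1. Itgb3, the β3 partner of that chain, singled out after its values were seen, stood at 39.8, 107 and 97.8 CPM in HLF KO and at 69.2, 109 and 67.4 CPM in wild type, which overlap.

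F2r encodes PAR1, a receptor that thrombin activates by cutting its outer end. PAR1 serves human platelets, whereas mouse platelets are known to use PAR3 and PAR4 in its place. F2r stood at 359, 405 and 486 CPM in HLF KO and at 221, 196 and 134 CPM in wild type. The genotypes did not overlap, and F2r had the smallest standard error of the members, with a log2 fold change of 1.18 (SE 0.25, 2.27-fold, 95% interval 1.54 to 3.33, edgeR adjusted p = 0.395; DESeq2 adjusted p = 0.0104). F2rl3 (PAR4) stood at 20.6, 42.5 and 29.7 CPM in HLF KO and at 4.83, 4.37 and 20.2 CPM in wild type. HLF KO library 1 barely exceeded wild-type library 3, with a log2 fold change of 1.66 (SE 0.79, edgeR adjusted p = 0.684) that was 2.75 without that wild-type library. F2rl2 (PAR3), singled out after its values were seen, stood at 42.4, 65.2 and 79.2 CPM in HLF KO and at 1.02, 40.6 and 51.5 CPM in wild type, which overlap.

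Plek encodes pleckstrin, the main substrate of protein kinase C in platelets, and is expressed across blood cells. It stood at 235, 308 and 333 CPM in HLF KO and at 235, 228 and 143 CPM in wild type. HLF KO library 1 and wild-type library 1 differed by 0.00834 CPM, so that the absence of overlap here is nominal. The log2 fold change was 0.53 (SE 0.27, 95% interval -0.05 to 1.12, edgeR adjusted p = 0.693). It was 0.34 without wild-type library 3, where it stood lowest. Its exons overlap those of Cnrip1 on the other strand, from which reads cannot be told apart unless strand was used in counting. With Plek, 5 members had every HLF KO library above every wild-type library and 0 below, where 7.52% of all tested genes lay above and 6.85% below. With relative log expression factors in place of TMM, and in libraries thinned to equal depth, that count was 4. For each of these 5 genes alone, the two-sided exact permutation p over libraries was 0.1, the smallest that 3 against 3 libraries allow.

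**Figure D2:**
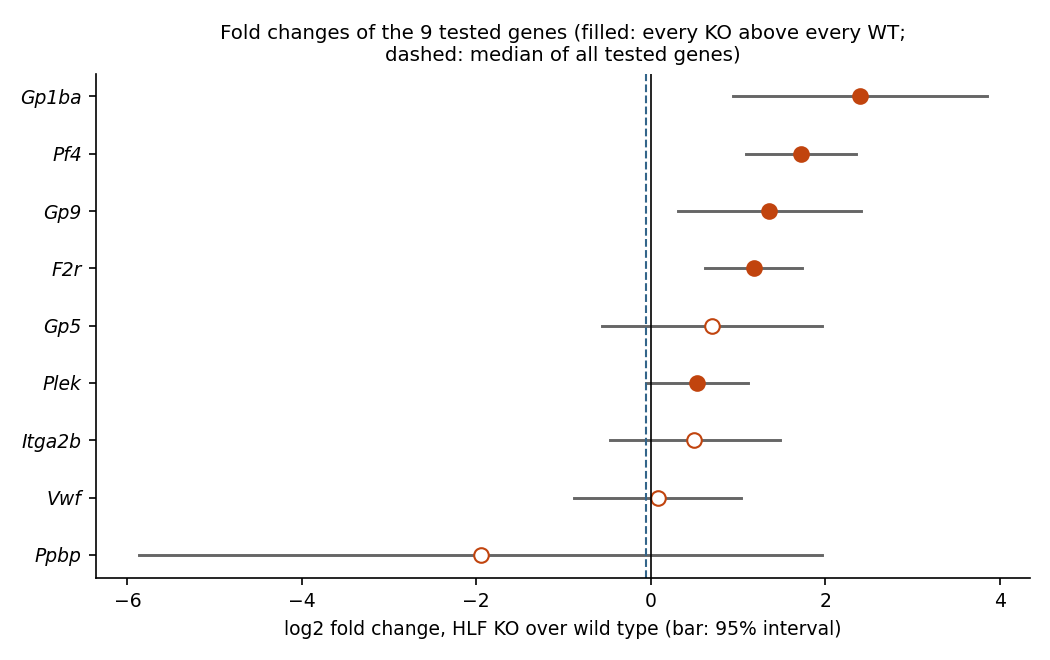
Log2 fold change of HLF KO over wild type (horizontal axis) for the 9 tested genes with 95% intervals from edgeR; filled points have every HLF KO library above every wild-type library, and the dashed line is the median of all tested genes (-0.05). The intervals of Gp1ba, Pf4, Gp9 and F2r lie above 0, and that of Ppbp runs from -5.87 to 1.96.

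Compared per kilobase of transcript, Pf4 was the most abundant member in both genotypes, at 743 ± 132 CPM per kilobase in HLF KO and 226 ± 79 in wild type (SD, n = 3 each). F2r came next, at 125 ± 19.4 CPM per kilobase in HLF KO and 55.1 ± 13.4 in wild type, and no library's F2r reached the lowest Pf4 of its genotype. In HLF KO the order went on with Gp9 (94.2 ± 32.6 CPM per kilobase), Plek (71.2 ± 12.4) and Itga2b (34.3 ± 4.13), of which Gp9 overlapped both F2r and Plek. Vwf (16.8 ± 8.55 CPM per kilobase), Gp5 (16.7 ± 6.76) and Gp1ba (14.5 ± 4.65) followed within each other's spread, with Ppbp last at 3.59 ± 3.85. In wild type the levels of F2r, Plek (49.2 ± 12.5 CPM per kilobase), Gp9 (36.6 ± 15.1) and Itga2b (24.2 ± 16.5) each overlapped the next. In wild type Ppbp ranged from 0.205 to 39.5 CPM per kilobase, so its mean there gives it no place in the order. Gp1ba stood at 1.54 to 3.38 CPM per kilobase in wild type, below Gp5 at 7.76 to 13.2 in every wild-type library. In HLF KO, Gp1ba at 9.17 to 17.6 CPM per kilobase overlapped Gp5 at 8.91 to 21.2. The level of Gp9 over that of Gp1ba, both per kilobase, was 3.59, 5.49 and 13.7 in HLF KO and 14.7, 26.3 and 5.96 in wild type, which overlap. The level of Gp5 over that of Gp1ba was 0.529, 1.21 and 2.17 in HLF KO and 2.3, 8.6 and 2.95 in wild type. These did not overlap, although 2.17 and 2.3 nearly touch. Pf4 over Vwf, on the same scale, was 37.9, 97.8 and 29.7 in HLF KO and 12.4, 18.9 and 13.7 in wild type, without overlap. Pf4 over Ppbp was 192 and 113 in HLF KO libraries 1 and 2 and 7.97, 89.8 and 801 in wild type, which overlap. It had no value in HLF KO library 3, where Ppbp had 0 counts. Ratios with Gp1ba or Pf4 restate in part the higher values of these genes in HLF KO.

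**Figure D3:**
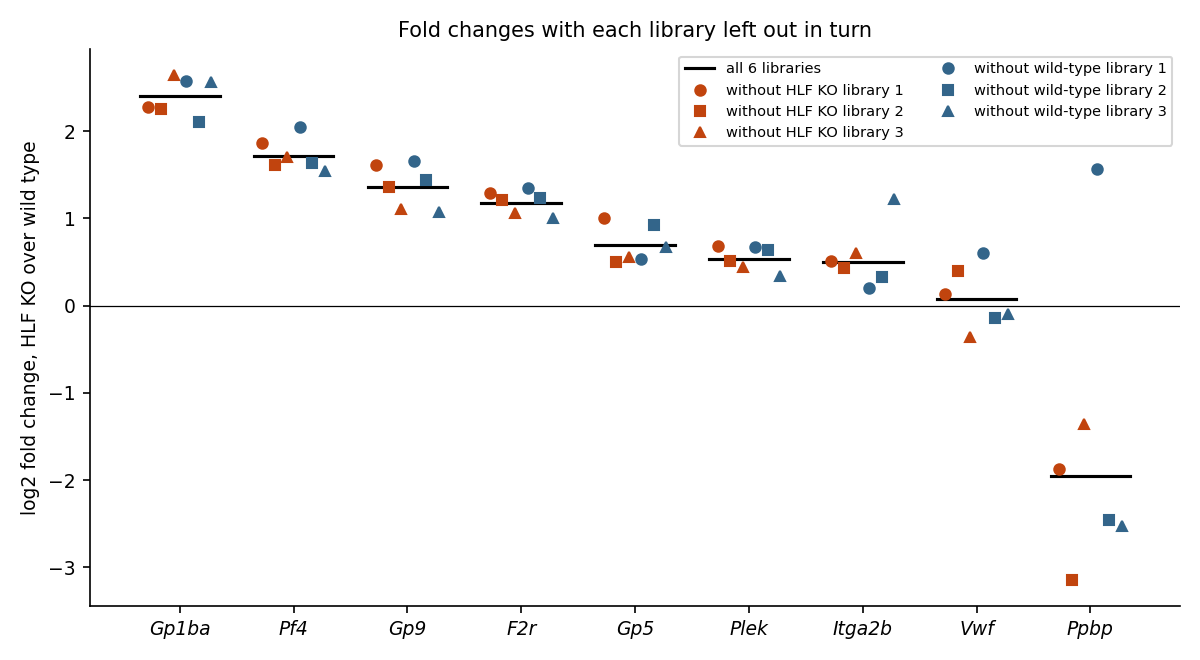
Log2 fold change of HLF KO over wild type (vertical axis) for each tested gene with all 6 libraries (black line) and with each library left out in turn (symbols, orange for a left-out HLF KO library and blue for a wild-type one). Pf4 stays between 1.54 and 2.05, Gp1ba between 2.11 and 2.65 and F2r between 1.00 and 1.35, while Ppbp and Vwf cross 0.

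The libraries themselves differed in which members were high. Of the 9 detected members, HLF KO libraries 2 and 3 held the highest level of 3 and 4, and HLF KO library 1 of 0. Wild-type library 3 had the lowest level of 4 members, yet the highest Itga2b. Without that library, which carried the granulocyte markers, the log2 fold change was 1.54 for Pf4, 1.00 for F2r, 1.07 for Gp9 and 2.56 for Gp1ba, and the unadjusted edgeR p stayed under 0.05 for each. Summed levels of 3 marker lists were lower in HLF KO without overlap. For endothelium, a known source of Vwf, they were 139 to 168 CPM in HLF KO and 201 to 304 in wild type (11 genes). For B cells they were 34 to 53.5 CPM in HLF KO and 83.6 to 162 in wild type (9 genes). For stem cells they were 313 to 381 CPM in HLF KO and 438 to 620 in wild type (12 genes). These sums follow their most abundant genes, and single genes of a list did not all separate the genotypes. Tie1 and Cd79b, the most abundant of the endothelial and B cell lists, overlapped between genotypes. Tek, Stab2 and Flt4 of the endothelial list and Vpreb1 of the B cell list were lower in HLF KO without overlap. The other tested genes of both lists overlapped, and all their tested genes had edgeR log2 fold changes below 0. In the stem cell list Mecom and Procr were lower in HLF KO without overlap (log2 fold changes -0.83, SE 0.31, and -1.69, SE 0.54). Ctnnal1 was higher without overlap (0.56, SE 0.54), and the other tested genes of that list overlapped. Erythroid markers, mainly Car2, overlapped at 2352.9 to 2925.4 CPM in HLF KO and 1970.1 to 2631.4 in wild type, with 6 of 15 at 0 counts, among them near-identical globin genes whose reads may be shared. Markers of T cells (28.3 to 44.9 CPM in HLF KO, 18.2 to 124 in wild type) and of mast cells and basophils, led by Cpa3 (40.6 to 94.1 and 59.2 to 181), overlapped too. Whether cells of these types were present, and their part in the members' values, was not tested.

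Other genes of the platelet programme were described through 5 lists with 96 genes, of which 75 were tested. Of these, 42 had positive and 33 negative log2 fold changes, with a median of 0.09. No list gene passed edgeR's adjusted test (0 of 75), and DESeq2 called 3 higher (Ccl5, Tuba8 and Mfsd2b) and 0 lower, against 0.212% and 0.878% of all genes it tested. At an unadjusted p under 0.05, 8 had higher values (10.7%, against 2.63% of all tested genes) and 1 had lower values (1.33%, against 4.65%). The count with lower values was 5 without wild-type library 3 and 0 without HLF KO library 3. Every HLF KO library lay above every wild-type library for 11 of the 75 genes (14.7%, against 7.52% of all tested genes) and below for 2 (2.67%, against 6.85%). The lists were written with earlier results of these data known, so these shares are a description and not independent support.

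Among 13 tested transcription factors of the lineage, 1 had higher values at an unadjusted p under 0.05. This was Gata1, which drives erythroid and megakaryocyte maturation, at 60.1, 77 and 101 CPM in HLF KO and 23.3, 30.3 and 47.5 CPM in wild type (log2 fold change 1.24, SE 0.44, edgeR adjusted p = 0.573), although without HLF KO library 3 its unadjusted p passed 0.05. The log2 fold change was 0.46 (SE 0.29) for its partner Zfpm1 (FOG-1) and -0.43 (SE 0.26) for Nfe2, needed for platelet release, and both overlapped between genotypes. Of 15 tested receptors and surface proteins, 0 had higher and 1 had lower values, the Fc receptor γ chain Fcer1g, which carries the signal of the collagen receptor GPVI and of Fc receptors in other blood cells (log2 fold change -1.66, SE 0.56, edgeR adjusted p = 0.557). It stood at 38.2, 21.2 and 13.6 CPM in HLF KO and 119, 75.6 and 36.3 CPM in wild type, overlapping through HLF KO library 1, and its unadjusted p passed 0.05 without wild-type library 1 or HLF KO library 3. Treml1, a receptor of alpha granules, stood at 42.9, 13.8 and 30.4 CPM in HLF KO and 0, 15 and 4.32 CPM in wild type (log2 fold change 2.17, SE 1.26).

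Of 14 tested granule and secreted proteins, 2 had higher values at an unadjusted p under 0.05. The chemokine Ccl5, also known from T cells, stood at 53.2, 44.4 and 131 CPM in HLF KO and 16, 11.9 and 15.6 CPM in wild type (log2 fold change 2.39, SE 0.54, edgeR adjusted p = 0.429; DESeq2 adjusted p = 0.00333). Tgfb1, the growth factor that platelets store and release, stood at 161, 191 and 184 CPM in HLF KO and 75.2, 88.5 and 98.4 CPM in wild type (1.03, SE 0.28, edgeR adjusted p = 0.466). Pdgfb reached 37.9 CPM in HLF KO library 2 and was at 0 to 10.1 CPM in the others, so its log2 fold change of 3.94 (SE 1.99) rests on few libraries. In the cytoskeleton list, 1 of 13 had higher values, the platelet tubulin Tuba8, at 89.7, 97.2 and 98.2 CPM in HLF KO and 37.8, 38.7 and 17.6 CPM in wild type (1.60, SE 0.43, DESeq2 adjusted p = 0.0384). The log2 fold change was -0.33 (SE 0.21) for talin (Tln1), which activates integrins, and 0.79 (SE 0.50) for Cnst.

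The signalling list held 4 of the 8 genes with higher values, among 20 tested. Mfsd2b, a sphingosine 1-phosphate exporter of red cells and platelets, stood at 245, 247 and 246 CPM in HLF KO and 77, 129 and 116 CPM in wild type (log2 fold change 1.19, SE 0.28, edgeR adjusted p = 0.429; DESeq2 adjusted p = 0.0164). Cavin2 stood at 90.9, 125 and 121 CPM in HLF KO and 45.8, 67.8 and 39.9 CPM in wild type (1.13, SE 0.37). The integrin-activating GTPase Rap1b had a log2 fold change of 0.80 (SE 0.32), which ranged from 0.56 without wild-type library 3 to 1.24 without wild-type library 1. Its unadjusted p passed 0.05 in 4 of the 6 fits without 1 library. For Rgs18, an inhibitor of G protein signals in platelets named after its values were seen, it was 0.81 (SE 0.36), with HLF KO library 3 at 102 CPM below all wild-type libraries. Some genes of mature platelets with 1 listed transcript, also named after their values were seen, were at or near 0 in all libraries. Tubb1, the tubulin of proplatelets, reached at most 2.01 CPM in HLF KO and had 0 counts in wild type, the collagen receptor gene Gp6 had 1 count in total, and Myl9 had 0.

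**Figure D4:**
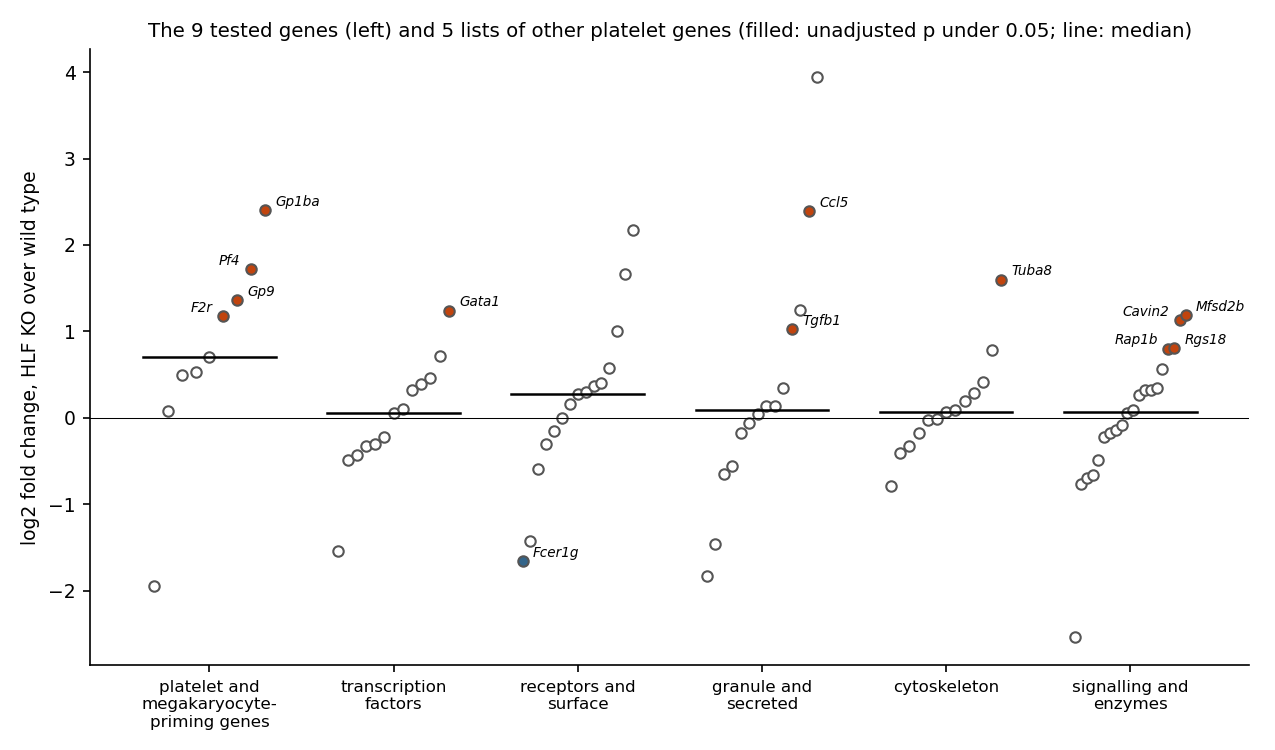
Log2 fold change of HLF KO over wild type (vertical axis) for the 9 tested platelet and megakaryocyte-priming genes and for 75 tested genes in 5 lists; each point is a gene, filled and named at an unadjusted edgeR p under 0.05, and lines are medians. The medians of the 5 lists lie between 0.05 and 0.27, and that of the left-hand genes at 0.70.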

How the data were processed

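Each library came as 1 table of raw read counts, which the authors deposited per RefSeq transcript. TopHat and build mm9 were used, per the submitters' processing notes. Not given in the sources used here: the counting tool, annotation release, strand setting and handling of shared reads. All 30858 transcripts were matched across libraries and 0 value columns were left unmatched. Symbols came from a RefSeq table of GRCm38.p6 (30363 transcripts) and GENCODE M21 cross-references (179), 316 kept their accession, and counts were summed per gene. Genes with 1 transcript held 97.2% of counts. 

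HLF KO was compared with wild type by edgeR 4.0.16 in R 4.3.3: filterByExpr (minimum count 10, minimum total 15), TMM, robust quasi-likelihood F test over 6 libraries, Benjamini-Hochberg adjustment over 10204 genes, threshold 0.05. The script was tested on simulated data. Standard errors came from the F statistic and a prior count of 2 entered log2 CPM. Levels per kilobase used GENCODE transcript lengths. Alternatives were DESeq2 1.42.0, limma-voom (limma 3.58.1), 2 other scalings, 2 filters, thinning, genes with 1 transcript, a replicate block, and libraries left out.

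All members were named, with Hlf and the 3 genes of smallest p in each of 5 platelet lists. Other platelet genes named are marked as such, and the genes of library checks and marker lists stand outside this rule. Members and lists were chosen with earlier results of these data known. Slamf1 is in both the receptor and the stem cell lists. A withheld item is not reported here.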

Additional observations from a re-analysis of the deposited data

How the results depend on the processing

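The members' counts of higher and lower values at an unadjusted p under 0.05 stayed at 3 to 5 and at 0 under the 16 alternatives, and Hlf stayed past the threshold in each (log2 fold change -5.52 to -5.17). Over all genes, edgeR without a filter called 9 genes, DESeq2 108, and fits without 1 library 1 to 3, and of the members these called 1 (Pf4), 3, and 0 to 1. The cause of these differences was not tested. The members' median log2 fold change ranged from 0.51 to 1.35 with 1 library left out, highest without wild-type library 1. The median of all genes was 0.06 under limma-voom, against -0.05. The number of other platelet genes with lower values was 2 without a filter, 0 to 5 with 1 library left out (0 without HLF KO library 3, 5 without wild-type library 3) and 3 without library 3 of both genotypes. Ppbp ranged from -3.15 to 1.57 with 1 library left out and was above 0 only without wild-type library 1. Vwf ranged from -0.36 to 0.60 with 1 library left out, and was below 0 without wild-type library 2 (-0.14), wild-type library 3 (-0.09), HLF KO library 3 (-0.36) or library 3 of both genotypes (-0.53). Same-numbered libraries did not deviate together across genes (r of -0.01, -0.022 and 0.02). This correlation cannot exclude a pairing that touches few genes, and library 3 of both genotypes shared abundant Xist. Whether the numbers pair the libraries is thus not settled. With the replicate block in the fit, 2 genes were called, none of them members, and 4 members had higher values at an unadjusted p under 0.05. Depth was 8346335 counts or more. Over the 6 libraries Gp1bb had 0 counts, Ppbp 486 and every other member 1485 or more.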
